A study of Oreochromis mossambicus with 6 samples.

Results

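Potassium channel genes were followed in gill filament RNA from male Mozambique tilapia (Oreochromis mossambicus) whose pituitary had been removed (hypophysectomized, Hx). Genes were taken from the deposited count table when their symbol began with kcn, in upper or lower case, and when they held at least 10 counts summed over the 6 libraries. Of 99 genes with such a symbol, 70 met the count minimum, out of 24878 genes tested. The symbol prefix assigned 15 of them to the inward rectifiers (kcnj), 26 to the voltage-gated channels (kcna to kcnd, kcnf to kcnh, kcnq and kcnv), 12 to the two-pore channels (kcnk), 7 to the calcium-activated channels (kcnma, kcnmb and kcnn) and 10 to auxiliary subunits of voltage-gated channels (kcnab, kcne and kcnip). The other 29 genes stayed under the minimum.

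The oPrl group was 3 Hx fish injected with ovine prolactin (oPrl) at 5 μg per g body weight, and the vehicle group was 3 Hx fish injected with saline. All 6 fish had recovered from surgery for 5 days in brackish water of 12 ppt, received 3 intraperitoneal injections at intervals of 48 h and were sampled 24 h after the last one. Removal of the pituitary takes away every pituitary hormone and not only prolactin (Prl), so both groups lacked the others. Ovine Prl stood in for the fish's own hormone. Each library came from the filaments of 1 fish.

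Potassium channels let K+ leave or enter a cell along its electrochemical gradient, and their families differ in what opens them. Inward rectifiers hold the resting potential and carry K+ across transporting epithelia, voltage-gated channels open on depolarization, two-pore channels conduct as background leaks, and calcium-activated channels open when cytosolic calcium rises. The gill epithelium carries ionocytes, cells packed with Na+/K+-ATPase that take up ions in fresh water and secrete them in seawater. In tilapia ionocytes, an inward rectifier of the renal outer medullary K channel (Romk) type is known as an apical route of K+ secretion. Prl is the pituitary hormone that supports life in fresh water in this species.

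The oPrl libraries held 30516271 to 32959492 counts on genes and the vehicle libraries 21643589 to 35976655. Libraries of the same group differed by more than sampling noise in every pair. Levels are given in CPM, computed from library sizes adjusted by the trimmed mean of M values (TMM). Groups were compared by the quasi-likelihood test of edgeR with Benjamini-Hochberg adjustment over all 24878 genes, and each log2 fold change sets oPrl fish over vehicle fish. Reads came from O. mossambicus but were mapped to the Nile tilapia (O. niloticus) genome, and counts of near-identical gene copies may be shared unevenly among them. CPM was not scaled to transcript length, so that levels are compared between groups and not between genes. In whole filaments, fewer cells of a type and less RNA per cell cannot be told apart.

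Both potassium channel genes called at an adjusted p below 0.01 with a log2 fold change beyond 1 in either direction were inward rectifiers, and both were lower in oPrl fish. These were kcnj1a.6, which encodes a Romk-type channel, and kcnj16, which encodes a subunit that pairs with other inward rectifiers in mammalian kidney tubules. They make up 2.86% of the 70 genes, beside 1.40% of all genes tested. By direction, 0 of 70 were called higher, beside 0.715% of all genes, and 2 of 70 lower, beside 0.687%. At an adjusted p under 0.05 without a fold threshold, kcng4a joined them, and the 3 genes, all lower, made up 4.29% of the 70. This is beside 6.11% of all genes in either direction and 2.83% lower. DESeq2 at 0.01 and a log2 fold change of 1 called 4 of the 70 genes, with kcng4a and kcnk1 added, all lower in oPrl fish. This was 5.71% of the 70 genes, beside 6.01% of all genes in either direction and 2.94% lower. Only 2 to 4 genes were called, and whether these shares set potassium channels apart from other genes was not tested.

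Most of the potassium channel genes lay on the lower side. The log2 fold change was below 0 for 48 of the 70 genes, or 68.6%, beside 48.5% of all genes tested. The median log2 fold change was -0.25 for the 70 genes and 0.02 for all genes. An unadjusted p under 0.05 was reached by 11 of the 70 genes, or 15.7%, beside 21.7% of all genes. The oPrl and vehicle libraries did not overlap in 14 of the 70 genes, or 20%, beside 29.0% of all genes. Among those 14, oPrl lay below vehicle in 11, or 15.7% of the 70, beside 12.7% of all genes, and above it in 3, or 4.29%, beside 16.3%.

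Depth divided the 70 genes. A mean of at least 1 CPM was reached by 24, whose median standard error (SE) of the log2 fold change was 0.35. The remaining 46 had a median SE of 0.80 and none was called. Among the 24 deeper genes, 17 had a log2 fold change below 0 and 7 above, with a median of -0.28, while the median of the 17629 genes tested at this depth was 0.07. The groups did not overlap in 8 of the 24, each time with oPrl below vehicle. This was 33.3%, beside 34.6% of all genes at that depth in either direction and 14.2% with oPrl below. At an adjusted p under 0.05 the share was 12.5% of the 24, beside 8.38%, and under the stricter rule 8.33%, beside 1.98%. Lower under the stricter rule were 2 of the 24, beside 171 of the 17629. In DESeq2 the stricter rule called 16.7% of the 24, beside 8.19%. These shares were not tested against each other.

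**Figure D1:**
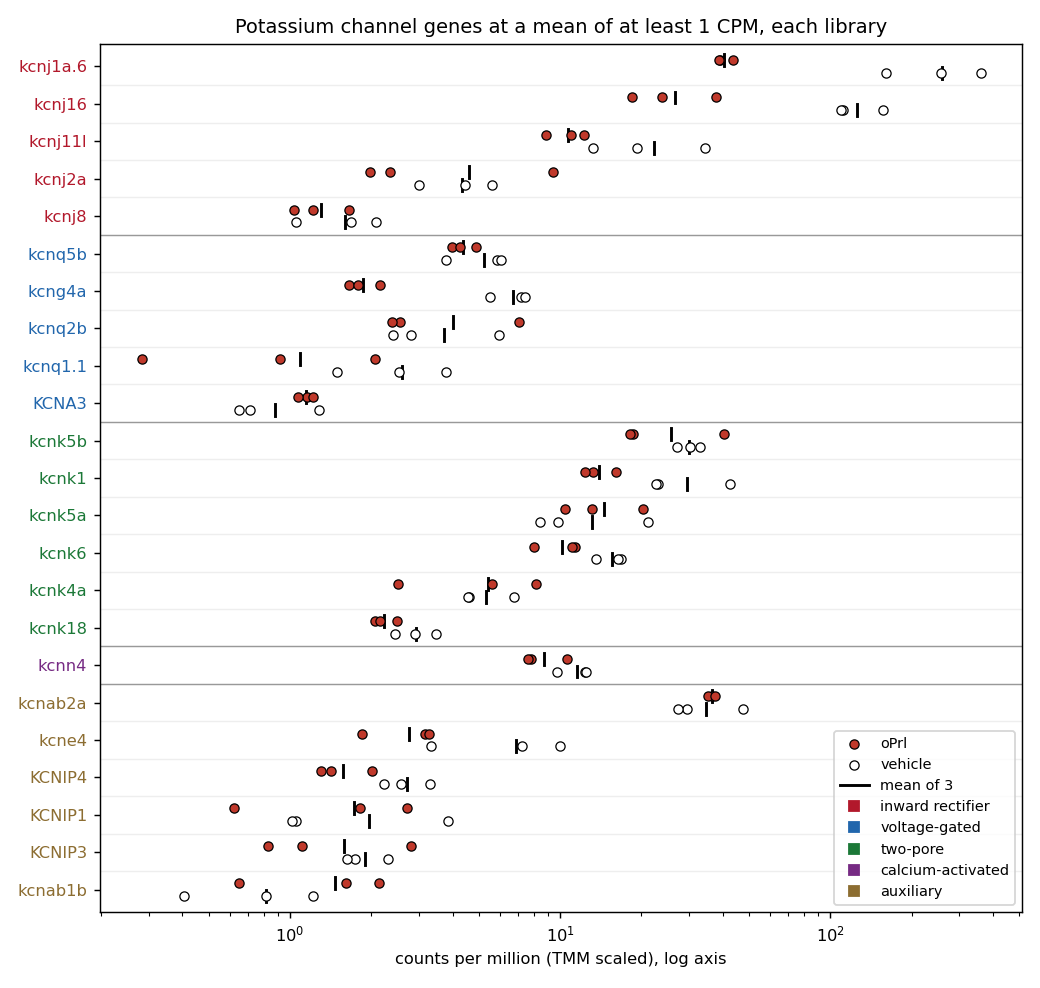
CPM of 23 potassium channel genes averaging 1 CPM or more, on a log axis, with 1 point for each library, a bar at the mean of the 3 and gene names coloured by family. The oPrl points of kcnj1a.6, between 38.9 and 43.6 CPM, lie apart from its vehicle points, between 161 and 360.0 CPM, and those of kcnj16 and kcng4a are also separate.

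Among the inward rectifiers, kcnj1a.6 (ENSONIG00000021375) had 39.1, 43.6 and 38.9 CPM in the oPrl libraries, against 360.0, 258 and 161 CPM in the vehicle libraries. The oPrl fish were close to one another, whereas the vehicle fish spread over more than a 2-fold range, and the highest oPrl value was far below the lowest vehicle value. The mean was 40.5 ± 2.66 CPM in oPrl fish and 259.8 ± 99.4 CPM in vehicle fish (SD, n = 3 each), so that oPrl fish had 15.6% of the vehicle mean. The log2 fold change was -2.68 with an SE of 0.29 (95% interval -3.36 to -2.0), and edgeR's adjusted p was 0.00475. That of DESeq2 was 3.92e-16. With 1 library left out, the log2 fold change lay between -2.93 and -2.38 and edgeR's adjusted p between 0.00702 and 0.031. It stayed under 0.01 only without vehicle replicate 3. The fall in kcnj1a.6 therefore kept its direction and an adjusted p under 0.05 whichever library was left out, but lost the stricter call when any of the other 5 was.

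The second gene, kcnj16 (ENSONIG00000029668), had 37.7, 18.5 and 23.8 CPM in oPrl fish, against 157, 111 and 110 CPM in vehicle fish. Here the oPrl fish were the more variable for their level, with replicate 1 the highest, and the groups were again apart. The means were 26.7 ± 9.96 CPM in oPrl fish and 126 ± 27.0 CPM in vehicle fish (SD, n = 3 each), or 21.2% of the vehicle mean. For kcnj16 the log2 fold change was -2.24 with an SE of 0.30 (95% interval -2.94 to -1.55), and edgeR's adjusted p was 0.00838. That of DESeq2 was 1.78e-10. With any 1 of the 6 libraries left out, edgeR's adjusted p lay between 0.014 and 0.048 and the log2 fold change between -2.58 and -2.03. Its place under 0.01 in edgeR thus needed all 6 libraries, and scaling by library totals without TMM also moved edgeR's adjusted p to 0.0123.

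The channel encoded by kcnj16 conducts in mammals as a partner of KCNJ10 or KCNJ15. KCNJ10 (ENSONIG00000015152) was sparse, with 13, 2 and 3 counts in the oPrl libraries and 9, 10 and 0 in the vehicle libraries. Its groups overlapped, with a log2 fold change of -0.33 and an SE of 1.09 (edgeR adjusted p = 0.90), which leaves a 95% interval of -2.89 to 2.23. No gene in the table carried a KCNJ15 symbol. Of the kcnj1 genes in the table, kcnj1b held 2 counts in all and stayed under the minimum. Among genes with a kcnj1 symbol, kcnj1a.6 was thus the only one tested. Only 17210 of the 32591 genes in the table carried a symbol, and the others were not searched for channels. Per count of kcnj1a.6 there were 0.966, 0.424 and 0.612 counts of kcnj16 in the oPrl libraries and 0.437, 0.431 and 0.681 in the vehicle libraries. These ratios overlapped between the groups, while both genes were lower with oPrl.

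Another inward rectifier, kcnj11l (ENSONIG00000040079), carries the symbol of the pore subunit of ATP-sensitive K+ channels. It had 8.84, 11 and 12.3 CPM in oPrl fish, against 19.2, 13.2 and 34.4 CPM in vehicle fish. The groups did not overlap, but vehicle replicate 3 stood well above the other vehicle fish. The log2 fold change of -1.06 (SE 0.35, edgeR adjusted p = 0.137) became -0.60 without that library. Its partners in ATP-sensitive channels are the sulfonylurea receptors, and abcc9 had 3.17, 2.43 and 1.75 CPM in oPrl fish and 0.810, 1.59 and 0.611 CPM in vehicle fish. The groups of abcc9 did not overlap either, with oPrl the higher (log2 fold change 1.27, SE 0.47, edgeR adjusted p = 0.173), and neither gene passed. The other receptor gene, abcc8, was sparse, with 14, 1 and 2 counts with oPrl and 11, 6 and 18 counts with vehicle, and lay on the lower side with overlap (log2 fold change -1.55, SE 1.03, edgeR adjusted p = 0.443).

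None of the other inward rectifiers passed. For kcnj2a, of the strong rectifiers that set the resting potential of muscle, oPrl replicate 2 had 9.43 CPM and the other oPrl fish 1.98 and 2.35 CPM, while the vehicle fish had 5.59, 4.46 and 3.0 CPM. A single fish thus set the oPrl mean, and the log2 fold change of 0.07 became -1.01 without it (edgeR adjusted p = 0.194). Of the other ATP-sensitive pore subunits, kcnj8 had a log2 fold change of -0.30 with an SE of 0.41, and kcnj11 (ENSONIG00000010513), under 1 CPM, one of -0.56 with an SE of 0.62. These 3 genes were chosen after their values had been seen. The G protein-gated genes kcnj3a, kcnj5, KCNJ6 and kcnj9 and the rest of the family were under 1 CPM, and none passed. KCNJ6 was the only inward rectifier with oPrl above vehicle without overlap, at 13, 14 and 13 counts with oPrl and 7, 12 and 1 counts with vehicle (edgeR adjusted p = 0.576). In all, 13 of the 15 inward rectifiers had a log2 fold change below 0, with a median of -0.56, and 11 of 15 were below 0 with library totals in place of TMM.

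**Figure D2:**
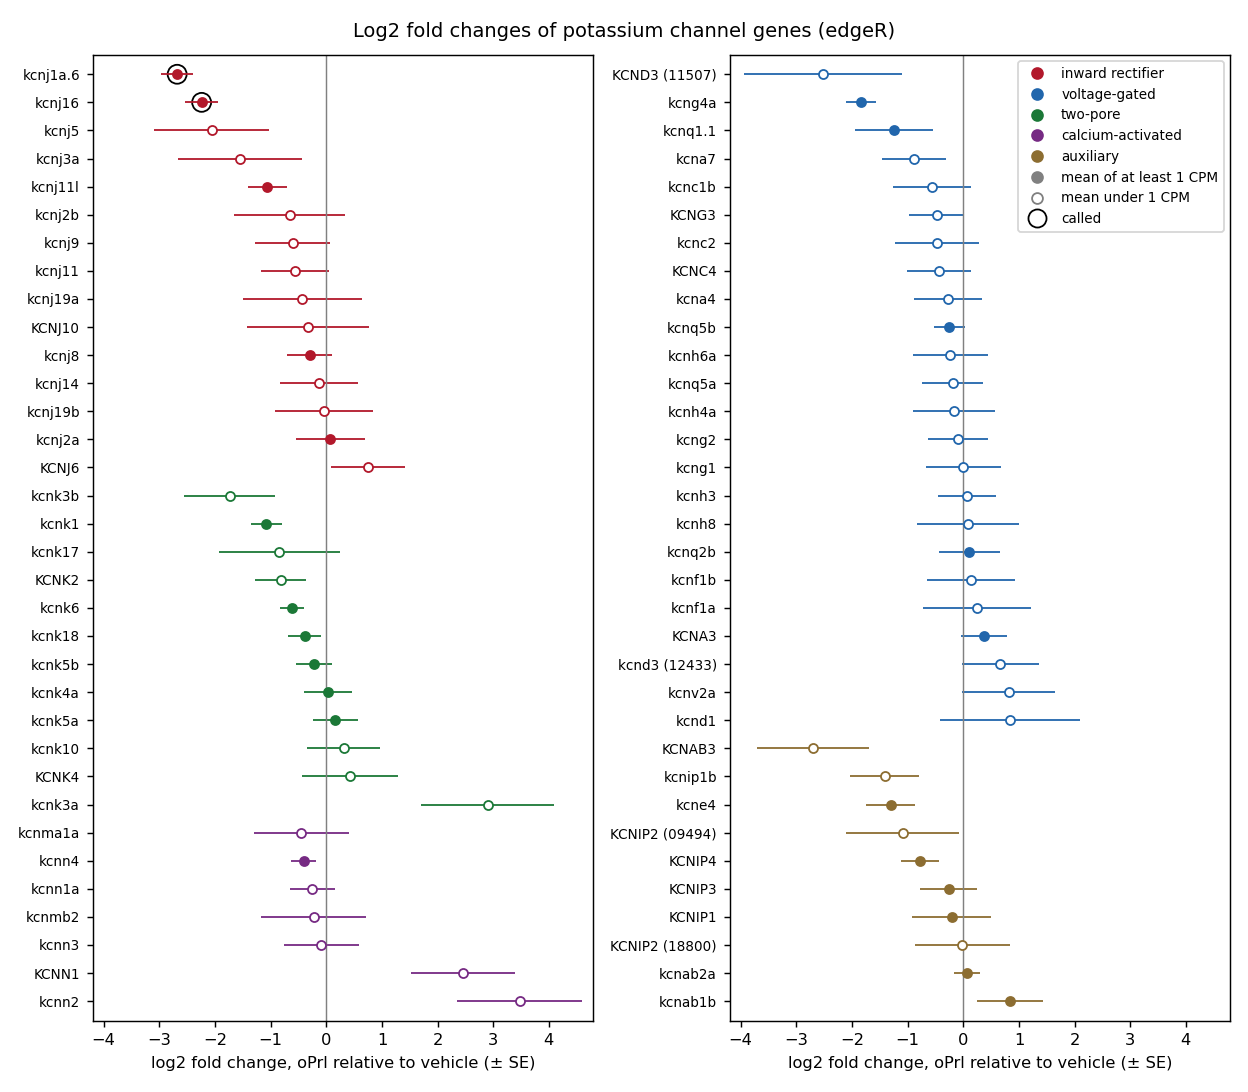
Log2 fold changes of 68 potassium channel genes, oPrl relative to vehicle, with bars of 1 SE, in panels of inward rectifiers, two-pore and calcium-activated channels on the left and voltage-gated channels and auxiliary subunits on the right. Filled points are genes averaging 1 CPM or more, open points are shallower genes, and the 2 ringed points are kcnj1a.6 at -2.68 and kcnj16 at -2.24.

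The summed level of the potassium channel genes was lower in oPrl fish. The 70 genes together took 242.4 ± 7.42 CPM in oPrl fish and 612.8 ± 112 CPM in vehicle fish (SD, n = 3 each). The ranges were 235.3 to 250.1 CPM in oPrl fish and 523.8 to 738.9 CPM in vehicle fish. Without kcnj1a.6 and kcnj16, the sum was 175.2 ± 3.84 CPM in oPrl fish and 227.1 ± 23.5 CPM in vehicle fish, still without overlap. Sums weight long and abundant transcripts, and no test was made on them.

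Together kcnj1a.6 and kcnj16 took 27.7 ± 2.67% of the potassium channel counts with oPrl and 61.9 ± 9.32% with vehicle. The share on kcnj1a.6 alone was 16.7 ± 1.22% with oPrl and 41.4 ± 9.43% with vehicle. Shares of a total move against each other, so the share on kcnab2a was 15 ± 0.749% with oPrl and 5.94 ± 2.73% with vehicle although the level of kcnab2a was similar in both groups. By family, the inward rectifiers summed to 85.9 ± 5.26 CPM in oPrl fish and 416.7 ± 118 CPM in vehicle fish. The two-pore channels summed to 73.6 ± 9.31 CPM in oPrl fish and 98.4 ± 9.45 CPM in vehicle fish, and these groups also did not overlap. The sums of the auxiliary subunits were 46.1 ± 3.96 CPM in oPrl fish and 50.2 ± 13.1 CPM in vehicle fish, and those of the voltage-gated channels 26 ± 4.70 CPM in oPrl fish and 34.4 ± 5.80 CPM in vehicle fish. Both of these overlapped between the groups, as did the calcium-activated channels, at 10.8 ± 2.03 CPM in oPrl fish and 13.1 ± 1.38 CPM in vehicle fish.

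**Figure D3:**
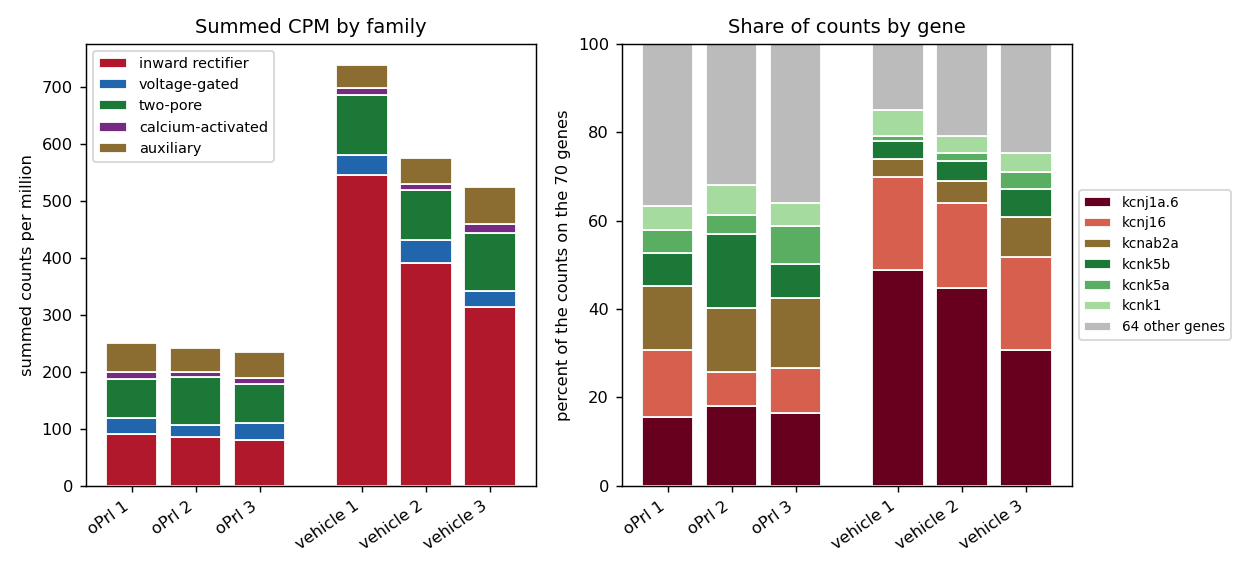
Potassium channel genes in each library, as summed CPM stacked by family (left) and as the percent of their counts on each of 6 genes and on all others (right). The oPrl stacks on the left reach 235.3 to 250.1 CPM and the vehicle stacks 523.8 to 738.9 CPM, and on the right kcnj1a.6 and kcnj16 together average 27.7% with oPrl and 61.9% with vehicle.

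In the two-pore family, kcnk1 (ENSONIG00000036138), a weakly conducting background channel found in many epithelia, had 13.2, 16.1 and 12.4 CPM in oPrl fish, against 42.4, 23.1 and 22.7 CPM in vehicle fish. The groups did not overlap and vehicle replicate 1 was the highest. Its log2 fold change was -1.08 with an SE of 0.28, which missed the threshold in edgeR (adjusted p = 0.071) and passed it in DESeq2 (adjusted p = 0.00499). Without vehicle replicate 1 the log2 fold change of kcnk1 was -0.73 in edgeR. With any 1 library left out, edgeR's adjusted p lay between 0.0727 and 0.204. For kcnk6, a relative of kcnk1, the values were 11.4, 11.1 and 8.01 CPM in oPrl fish and 13.5, 16.8 and 16.4 CPM in vehicle fish. This was also without overlap but smaller, with a log2 fold change of -0.62 and an SE of 0.21 (edgeR adjusted p = 0.148), and kcnk6 was chosen after its values had been seen.

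The acid- and alkali-sensitive background channels encoded by kcnk5b and kcnk5a, known from the mammalian proximal tubule, did not pass. The gene kcnk5b (ENSONIG00000040795) had 18.5, 40.4 and 18.1 CPM in oPrl fish and 30.2, 27.0 and 32.8 CPM in vehicle fish. Its oPrl replicate 2 lay above every vehicle fish and the other oPrl fish below every one. The log2 fold change of -0.22 (SE 0.32, edgeR adjusted p = 0.748) became -0.71 without that library (edgeR adjusted p = 0.0618). The gene kcnk5a (ENSONIG00000019568) had 13.1, 10.4 and 20.2 CPM in oPrl fish and 8.42, 9.80 and 21.1 CPM in vehicle fish, which overlapped widely. Its log2 fold change was 0.16 with an SE of 0.40, and the 95% interval of -0.78 to 1.10 covers a doubling.

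The mechanosensitive channel gene kcnk4a had a log2 fold change of 0.03 (SE 0.43) and the calcineurin-regulated kcnk18 one of -0.39 (SE 0.30). KCNK2, another mechanosensitive channel, had 0.740, 0.829 and 0.396 CPM in oPrl fish and 1.46, 1.14 and 0.865 CPM in vehicle fish, groups that lay just apart (log2 fold change -0.82, SE 0.46, edgeR adjusted p = 0.36). The acid-sensitive pair kcnk3a and kcnk3b lay on opposite sides at very low depth. Counts of kcnk3a were 6, 14 and 1 with oPrl and 1, 1 and 0 with vehicle (edgeR adjusted p = 0.217). Those of kcnk3b were 1, 3 and 6 with oPrl and 14, 5 and 6 with vehicle (edgeR adjusted p = 0.277), and the 2 differences were not tested against each other. All of these were named after their values had been seen. Over the family, 7 of 12 genes had a log2 fold change below 0, with a median of -0.31.

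Among the voltage-gated channels, kcng4a (ENSONIG00000010298) stood apart. It encodes a modulatory subunit that forms no channel alone and joins pore-forming subunits of another group. It had 2.16, 1.66 and 1.78 CPM in oPrl fish, against 7.17, 7.42 and 5.50 CPM in vehicle fish. Both groups were narrow and far apart, with means of 1.87 ± 0.261 CPM in oPrl fish and 6.69 ± 1.04 CPM in vehicle fish (SD, n = 3 each), or 27.9% of the vehicle mean. In edgeR the log2 fold change was -1.84 with an SE of 0.27 (95% interval -2.48 to -1.21). The adjusted p of 0.0116 in edgeR just missed the stricter rule, and that of DESeq2 was 1.85e-09. With 1 library left out, edgeR's adjusted p lay between 0.0169 and 0.0646, above 0.05 without oPrl replicate 3 (0.0646) or vehicle replicate 1 (0.0592).

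The kcnq genes encode slowly opening channels that steady the membrane potential, and none of the 5 tested passed. For kcnq5b (ENSONIG00000008979) the values were 3.99, 4.88 and 4.27 CPM in oPrl fish and 5.83, 6.05 and 3.77 CPM in vehicle fish, with overlap (log2 fold change -0.25, SE 0.28, edgeR adjusted p = 0.659). For kcnq2b the log2 fold change was 0.11 (SE 0.55). The epithelial and cardiac channel gene kcnq1.1 had 2.07, 0.921 and 0.283 CPM in oPrl fish and 1.5, 2.53 and 3.77 CPM in vehicle fish. The overlap rested on oPrl replicate 1, and the log2 fold change was -1.25 with an SE of 0.70 (edgeR adjusted p = 0.361). The deepest gene of the shaker group, KCNA3 (ENSONIG00000020543), a channel of lymphocytes in mammals, had a log2 fold change of 0.37 (SE 0.42). The last 3 genes were named after their values had been seen.

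Only 6 of the 26 voltage-gated genes reached 1 CPM. Of the 26, the groups did not overlap in 1, kcng4a, or 3.85%, beside 29.0% of all genes tested, and 15 had a log2 fold change below 0, with a median of -0.16. The neuronal groups kcnc, kcnd, kcnf, kcnh and kcnv were all under 1 CPM.

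Of the calcium-activated channels, only kcnn4 reached 1 CPM. Its product is the intermediate-conductance channel of red cells and epithelia in mammals. It had 10.6, 7.80 and 7.64 CPM in oPrl fish and 12.3, 9.72 and 12.5 CPM in vehicle fish. Replicate 1 of the oPrl group lay above vehicle replicate 2, so the groups overlapped by that 1 pair, and the log2 fold change was -0.41 with an SE of 0.23 (edgeR adjusted p = 0.358). The small-conductance genes kcnn1a and kcnn3 had log2 fold changes of -0.25 (SE 0.41) and -0.09 (SE 0.67), the second of which turned to 0.08 with library totals.

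The largest rise fitted among the 70 genes was in another small-conductance gene, kcnn2 (ENSONIG00000003612), at 18, 6 and 33 counts with oPrl and 0, 4 and 0 counts with vehicle. KCNN1 (ENSONIG00000012591) had 8, 5 and 11 counts with oPrl and 0, 1 and 2 counts with vehicle. In both genes every oPrl library was above every vehicle library, and edgeR's adjusted p was 0.128 for kcnn2 and 0.188 for KCNN1, so that neither passed. These were named after their counts had been seen, and at such counts the size of a fold change is poorly determined. Together with KCNJ6 they were the 3 genes in which oPrl lay above vehicle without overlap.

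Among the auxiliary subunits, kcnab2a (ENSONIG00000014302), the cytosolic beta subunit of shaker-type channels, was even between the groups. It had 36.5, 35.3 and 37.4 CPM in oPrl fish and 29.6, 27.4 and 47.5 CPM in vehicle fish. Its log2 fold change was 0.07 with an SE of 0.23 and a 95% interval of -0.47 to 0.60 (edgeR adjusted p = 0.905). The single-span subunit gene kcne4 (ENSONIG00000014646), whose product inhibits KCNQ1 channels in mammals, had 3.17, 1.84 and 3.28 CPM in oPrl fish and 3.32, 7.25 and 9.97 CPM in vehicle fish. The vehicle fish ran from just above the oPrl fish to about 3 times their level, with a log2 fold change of -1.31 and an SE of 0.45 (edgeR adjusted p = 0.146).

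KCNIP4 (ENSONIG00000041474), a calcium-binding partner of kcnd channels, had 2.01, 1.41 and 1.30 CPM in oPrl fish and 2.23, 2.59 and 3.31 CPM in vehicle fish. The groups lay just apart, with a log2 fold change of -0.78 and an SE of 0.34 (edgeR adjusted p = 0.244). All 6 kcnip genes had a log2 fold change below 0, the smallest at -0.02, and none passed. For the beta subunit gene KCNAB3 the counts were 1, 3 and 0 with oPrl and 3, 16 and 5 with vehicle (edgeR adjusted p = 0.177). These touched at 3 counts, although they did not overlap once scaled by library size, and KCNAB3 was named after its counts had been seen.

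**Figure D4:**
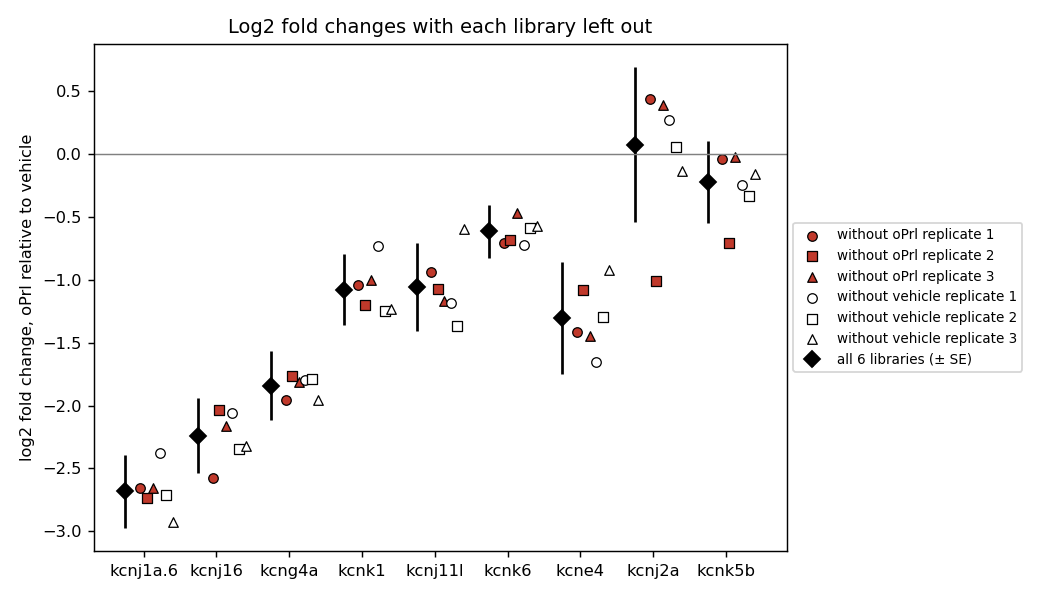
Log2 fold changes of 9 potassium channel genes, oPrl relative to vehicle, in edgeR with all 6 libraries (diamonds, bars of 1 SE) and after dropping an oPrl library (red) or a vehicle library (white). Values stay between -2.93 and -2.38 for kcnj1a.6 and between -2.58 and -2.03 for kcnj16, while those of kcnj2a and kcnk5b drop to -1.01 and -0.71 without oPrl replicate 2.

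Genes that work beside these channels were taken from lists of partners. Of all genes tested, 1.40% were called at 0.01 and 6.11% had an adjusted p under 0.05, with 2.83% lower at 0.05. Of 10 genes for subunits and relatives that carry no kcn symbol, such as abcc9 and the hyperpolarization-activated hcn genes, 0 were called at 0.01 and 0 at 0.05. Of 22 genes of ion transport, including the Na+/K+-ATPase, the chloride channels and cotransporters and the kinases that regulate Romk in mammalian kidney, 0 were called at 0.01 and 2 were lower at an adjusted p under 0.05. These were atp1a1b, a catalytic subunit of Na+/K+-ATPase (log2 fold change -1.15, SE 0.17, edgeR adjusted p = 0.0123), and SGK1, a kinase that raises Romk at the membrane in mammals (log2 fold change -2.18, SE 0.40, edgeR adjusted p = 0.0239). The adjusted p of atp1a1b was above 0.05 without oPrl replicate 3 (0.0668) or vehicle replicate 1 (0.0707). That of SGK1 was between 0.0542 and 0.0922 with any library other than oPrl replicate 2 left out, and 0.00224 without that one. With all 6 libraries, the DESeq2 adjusted p was 1.3e-06 for atp1a1b and 1.54e-06 for SGK1. The paper's qPCR on the complete experiment also had lower sgk1 in oPrl fish. The kinase gene wnk4b had a log2 fold change of -1.37 (SE 0.34) that passed in DESeq2 (adjusted p = 0.002) and not in edgeR (adjusted p = 0.061). Over the 22 genes, 10 had a log2 fold change below 0 and 12 above.

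Genes of chloride secretion in ionocytes did not pass the test in these libraries. The basolateral cotransporter gene slc12a2, which brings K+ into the cell with Na+ and Cl-, had 211, 88.5 and 80.5 CPM in oPrl fish and 231, 185 and 95.7 CPM in vehicle fish, with overlap (log2 fold change -0.43, SE 0.45, edgeR adjusted p = 0.642). Its log2 fold change was -1.01 without oPrl replicate 1 and -0.14 without vehicle replicate 1. The apical chloride channel gene cftr had a log2 fold change of -0.21 with an SE of 0.47 (edgeR adjusted p = 0.85). Its oPrl replicate 1, at 63.98 CPM, lay above every vehicle fish (32.82 to 52.83 CPM). The other oPrl fish, at 21.47 and 18.95 CPM, lay below every one. The log2 fold change of cftr was -0.99 without oPrl replicate 1 (edgeR adjusted p = 0.116). It lay between -0.32 and 0.09 with any other library left out. By qPCR on the complete experiment, the paper reported lower cftr in oPrl fish.

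Markers of the cells that a filament can hold were read beside the channels. The 14 ionocyte marker genes were detected in every library, and their summed level was 3850 to 4422 CPM in oPrl fish and 4858 to 6774 CPM in vehicle fish, without overlap. Without atp1a1b, the gene with the largest difference in CPM, the sums overlapped, at 2820 to 3161 CPM in oPrl fish and 2800 to 3786 CPM in vehicle fish. Within this list, slc4a4b, a bicarbonate cotransporter gene, was higher with oPrl (log2 fold change 1.88, edgeR adjusted p = 0.00753), with an adjusted p of 0.0131 to 0.0474 when any 1 library was left out. The exchanger gene slc9a2 (log2 fold change -1.84, edgeR adjusted p = 0.0145) and atp1a1b were lower at an adjusted p under 0.05, and ca2 had a log2 fold change of -1.80 (edgeR adjusted p = 0.088, DESeq2 adjusted p = 0.00249). The ionocyte transcription factor gene foxi3b was at 157, 149 and 170 CPM in oPrl fish and 162, 118 and 138 CPM in vehicle fish. Another, foxi1, was at 4.53, 1.63 and 3.08 CPM in oPrl fish and 7.57, 4.97 and 2.39 CPM in vehicle fish. Both overlapped between the groups, with log2 fold changes of 0.19 (SE 0.16) for foxi3b and -0.69 (SE 0.51) for foxi1. For slc9a2 the adjusted p was over 0.05 without oPrl replicate 1 (0.0546), oPrl replicate 3 (0.0697) or vehicle replicate 1 (0.0555). Of the 14 genes, 9 had a log2 fold change below 0 and 5 above, with a median of -0.46. In edgeR at 0.05, 1 of them was higher and 2 lower, beside 3.28% and 2.83% of all genes tested. The part of ionocyte number in the values of kcnj1a.6 and kcnj16 was not tested.

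Epithelial markers summed to 6582 to 10427 CPM in oPrl fish and 11548 to 12577 CPM in vehicle fish, also without overlap. They overlapped without krt5, a keratin gene, at 3477 to 5389 CPM in oPrl fish and 5093 to 5623 CPM in vehicle fish. Of the 7 genes, 4 had a log2 fold change below 0 and 3 above. In edgeR at 0.05, 0 passed, beside 6.11% of all genes tested. Cartilage markers summed to 158.9 to 181.9 CPM in oPrl fish and 95.5 to 153.8 CPM in vehicle fish, without overlap. Most of this was sox9b, with means of 153 CPM in oPrl fish and 124 CPM in vehicle fish. Without sox9b the sums were 14.9 to 23.3 CPM in oPrl fish and 7.16 to 8.80 CPM in vehicle fish, still apart. The matrix genes col2a1a, acanb and matn1 each averaged under 1 CPM. All 6 cartilage markers had a log2 fold change above 0, and 0 passed in edgeR at 0.05, beside 6.11% of all genes. In DESeq2 sox9a passed (log2 fold change 1.12, DESeq2 adjusted p = 0.00496). For muscle, where kcnj2a is also used, skeletal markers summed to 69.5 to 123 CPM in oPrl fish and 44.4 to 269 CPM in vehicle fish, and the vehicle range enclosed that of oPrl. Of 6 smooth muscle markers 1 was lower at 0.05, beside 2.83% of all genes tested. This was lmod1b (log2 fold change -1.67, edgeR adjusted p = 0.0278). Its adjusted p was 0.058 to 0.0855 with any library other than vehicle replicate 1 left out.

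Neuron markers, the usual setting of most voltage-gated genes, were scarce, at 3.72 to 4.89 CPM in sum in oPrl fish and 3.61 to 4.66 CPM in vehicle fish. Erythrocyte markers summed to 209.3 to 527 CPM in oPrl fish and 269 to 499 CPM in vehicle fish, and epor among them passed in DESeq2 (log2 fold change -1.14, DESeq2 adjusted p = 0.00846). Only 5 of the 10 erythrocyte symbols listed were matched, and the hemoglobin gene hbae5 averaged 1.78 CPM in oPrl fish and 2.51 CPM in vehicle fish. Without slc4a1b, the gene of the largest difference, the sums were 144.7 to 312.6 CPM in oPrl fish and 132.6 to 271.8 CPM in vehicle fish. The list is thus a limited reading of red cells. Sums of leukocyte markers were 1818 to 2026 CPM in oPrl fish and 1870 to 2324 CPM in vehicle fish, and those of endothelial and pillar cell markers 250.5 to 525 CPM in oPrl fish and 311 to 398 CPM in vehicle fish. In these lists, neuron markers included, 0 genes passed in edgeR at 0.05, beside 6.11% of all genes tested. The part of any of these cell types in the channel values was not tested.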

How the data were processed

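RNA from gill filaments of 6 Hx tilapia, 3 per group, was measured. Per the labels, processing used bcl2fastq 2.20, Trimmomatic 0.36 and STAR 2.5.2b. The authors mapped reads to the Nile tilapia genome and deposited the raw featureCounts counts for each gene. For the genome build, the annotation and the strand setting, a value is not given in the sources used here. A row without a gene ID held 0.0901% to 0.135% of a library's counts and was left out.

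Genes with at least 10 counts in all (24878 of 32591) entered the fit, in edgeR 4.0.16 under R 4.3.3. TMM normalization, the quasi-likelihood test and Benjamini-Hochberg adjustment were used, and the thresholds were an adjusted p of 0.01 with an absolute log2 fold change of 1, or an adjusted p of 0.05 alone. SE is the absolute log2 fold change over the root of F. DESeq2 1.42.0, the study's tool, was an alternative, beside other scalings and filters, a robust fit, a replicate block and leaving out each library. Fits were tested on simulated data.

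Potassium channel genes and lists were chosen with earlier results of these data known. Named genes were those past a threshold in edgeR or DESeq2, the 3 deepest of each family, the 3 largest falls without overlap among genes averaging 1 CPM or more, the epithelial inward rectifiers (kcnj1, kcnj10, kcnj15, kcnj16), list genes past a threshold, and sgk1, slc12a2 and cftr. Genes outside this rule, such as abcc9, foxi1 and foxi3b, were named after their values had been seen. Marker lists covered ionocytes, neurons, skeletal and smooth muscle, erythrocytes, leukocytes, endothelial and pillar cells, epithelium and cartilage. Of the 25 ion transport symbols listed 18 were matched, and of the 13 channel partner symbols 9. Sums of each marker list without the gene of the largest difference were added after seeing the data. P-values measure the spread between 3 fish per group. Sequences, gene lengths and coordinates were not used here. Results of 2 of the 70 genes are not reported here by name, and these genes stay in all counts, sums and medians.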

Additional observations from a re-analysis of the deposited data

How the results depend on the processing

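The direction of kcnj1a.6, kcnj16, kcng4a and kcnk1 was the same under every alternative run. Of potassium channel genes, 2 were called, against 1 with library totals (kcnj1a.6), 3 with filterByExpr (kcng4a added, adjusted p = 0.00951), 4 with DESeq2 and 0 to 1 without 1 library. At an adjusted p under 0.05 there were 3 of the 70, against 7 with DESeq2 and 2 to 3 without 1 library. The share of all genes under 0.05 was 6.11%, against 13.3% with DESeq2 and 1.66% to 5.70% without 1 library. Over all genes, 349 were called, against 505 (2.03%) with library totals and 394 (1.96%) with filterByExpr. DESeq2 called 1496 genes, and 0 to 215 were called without 1 library. Without vehicle replicate 1 edgeR called 0 genes, with 4154 at an unadjusted p under 0.05, and without oPrl replicate 3 it called 5. With library totals the log2 fold change had a median of 0.19 over all genes, against 0.02 with TMM, and 70.9% of the calls were then higher with oPrl, against 51.0%. With library totals 60% of the potassium channel genes and 37.4% of all genes were below 0, against 68.6% and 48.5% with TMM. The cause of these changes was not tested. Leaving out a library removes a particular fish and lowers the number of samples at once, and these cannot be told apart.

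No call rests on the near-zero fold changes that turned sign. With library totals kcnn3 was at 0.08. Without 1 library the log2 fold change lay between -0.12 and 0.36 for kcnab2a, -0.15 and 0.69 for kcnk5a, -0.34 and 0.63 for kcnn3, -1.55 and 0.18 for KCNJ10, and -0.99 and 0.09 for cftr.

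The labels give replicate numbers and name no pairs of fish. Deviations of same-numbered libraries correlated at -0.13, -0.05 and 0.01, and those of differently numbered libraries at -0.08 to 0.14. With 3 libraries per group, these values cannot settle whether the fish were paired. With the replicate number as a block, 30 genes and 0 potassium channel genes were called. In that fit 3 of the 70 genes stayed under an adjusted p of 0.05, beside 2.81% of all genes. The log2 fold change of kcnn3 was then 0.01.

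Depth limits the 46 genes under 1 CPM, whose median SE was 0.80 on the log2 scale, and 23 of the 70 genes had no adjusted p in DESeq2.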

Other observations

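The 29 kcn genes under the count minimum held 0 to 9 counts each over the 6 libraries and belong in no comparison. By family, 17 of them were voltage-gated, 6 two-pore, 3 inward rectifiers, 2 auxiliary and 1 calcium-activated. KCNA10, a channel of the inner ear in mammals, appeared there as a pair of genes with 9 and 6 counts. A further gene with the symbol kcnj11l had 9 counts, whereas its namesake ENSONIG00000040079 was well covered in every library. The genes kcnk10a, kcnj13 and kcna2a were listed at 0 counts.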
